A study of Homo sapiens with 105 samples.

Results

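The genes described here are 10 that growth factor signals switch on: the transcription factors MYC, FOS, FOSL1, JUNB and EGR1, and the ERK-induced genes DUSP6, ETV4, ETV5, SPRY4 and PHLDA1. They were chosen by name for this pathway, with earlier results of these data known, from the 63241 genes counted in Caco-2 cells. All 10 were among the 18775 genes with enough counts to be tested. Growth factor receptors pass their signal through RAS, RAF and MEK to the kinase ERK, which enters the nucleus and activates factors that switch on the immediate early genes within minutes, before any new protein is made. FOS, FOSL1 and JUNB encode subunits of the factor AP-1, EGR1 a zinc finger factor and MYC a driver of ribosome production and growth. A later set of ERK-induced genes then damps the same cascade, and in the intestinal epithelium both sets are known from the dividing cells of the crypt and from colorectal tumours.

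Caco-2 is a line from a human colon adenocarcinoma that takes on features of absorptive enterocytes in culture. The cells were given fresh medium with bacterial extracellular vesicles or were transfected with RNA from them, and total RNA was sequenced 10 and 24 h later, with a 48 h time point for L. casei, siRNA and PBS. The vesicle groups received 1.5e+11 membrane vesicles (MVs) of Lacticaseibacillus casei, 7.5e+09 MVs of Enterococcus faecalis or 6.0e+09 outer membrane vesicles (OMVs) of Proteus mirabilis, against PBS. The RNA groups received 100 ng of L. casei, 5 ng of E. faecalis or 2 ng of P. mirabilis vesicle RNA with Lipofectamine, against a non-targeting siRNA (ANC) at the same amounts. P. mirabilis LPS was given in the medium, against PBS, or by transfection, against 2 ng of siRNA. The labels and the paper state the LPS amount in different volume units, so no LPS dose is given here. The siRNA groups carried the transfection reagent and the PBS groups did not, so siRNA against PBS compares 2 routes of treatment.

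The 28 groups were read from 66 libraries, 2 in each of 20 groups, 3 in 6 and 4 in 2. A further 39 libraries came from lanes 2 to 4 of 1 flow cell and were set aside because their profiles went against their labels. Set beside the average profile of the used libraries at each time and replicate number (leaving out the library in question), the closest profile had the labelled time for 66 of the 66 used and 12 of the 39 set aside. That choice decides the calls below, since with the 39 added back 0 of the 10 genes passed in any comparison of treatments or times, with or without a term for the replicate number. The loss was not particular to the 10. Of all 18775 tested genes, 0 were then called for L. casei MVs against PBS, siRNA or L. casei RNA at 48 h. For P. mirabilis OMVs against LPS at 10 h, 0.0266% were called without that term and 0.032% with it. Used libraries held 632659 to 8558755 counts, with a median of 5563438. Levels are given as counts per 1e6 (CPM) of library sizes scaled by TMM. All 6 epithelial markers (EPCAM, CDH1, KRT8, KRT18, KRT19 and CDX2) were counted in each used library, at a sum of 3690 to 8480 CPM, and the 12 markers of other cell types summed to 48.1 to 271 CPM. Of those, PTPRC, COL1A2, DCN and CDH5 were at or near 0, while lysozyme (LYZ, mean 89.4 CPM) and the collagen gene COL1A1 (35.6 CPM) were present.

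FOS, EGR1 and SPRY4 had their lowest group mean in the same condition, P. mirabilis OMVs at 10 h, and the bases before their starts are shown so that the elements known to answer ERK and cAMP signals can be seen. Of the 10 genes, 6 (FOS, JUNB, EGR1, DUSP6, SPRY4 and PHLDA1) were found in the RefSeq promoter table of GRCh38.p14. The printed windows hold the 150 bases before the start, read 5′ to 3′ on the gene's strand. Capitals mark CArG boxes in EGR1 and the motif TGACG in FOS and SPRY4. The start given for SPRY4 in the promoter table lies inside the annotated span of the gene (142310427 to 142326455), and so does its window.
EGR1, chr5:138465329-138465478, plus strand: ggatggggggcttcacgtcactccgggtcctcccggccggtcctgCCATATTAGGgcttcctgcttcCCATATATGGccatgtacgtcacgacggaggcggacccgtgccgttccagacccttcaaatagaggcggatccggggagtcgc
FOS, chr14:75278678-75278827, plus strand: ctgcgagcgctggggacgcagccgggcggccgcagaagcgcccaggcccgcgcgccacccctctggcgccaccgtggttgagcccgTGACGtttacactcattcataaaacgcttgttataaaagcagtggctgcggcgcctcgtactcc
SPRY4, chr5:142324248-142324397, minus strand: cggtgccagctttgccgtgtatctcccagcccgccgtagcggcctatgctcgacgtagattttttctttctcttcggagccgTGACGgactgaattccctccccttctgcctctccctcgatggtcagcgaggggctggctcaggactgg

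The CArG box, the element bound by serum response factor, was searched on both strands over the table's whole windows, from 250 bases before to 50 after the start. Within these windows it occurred in 1.29% of all 35116 promoters and in 1 of the 6, EGR1. There it has 2 boxes, the nearer of them beginning 83 bases before the start. Boxes farther from the start were not searched for, in FOS or any other gene. TGACG, the core of the cAMP response element, occurred in 24.6% of all promoters and in 4 of the 6, FOS (64 bases before the start), SPRY4 (68), JUNB (137) and EGR1 (66 and 135, on the opposite strand). CCGGAA, an ETS core, was in PHLDA1 alone of the 6 and in 17.2% of all promoters. GCGNGGGCG, which EGR1 protein itself binds, was in EGR1 and SPRY4 and in 9.43%. The AP-1 motif TGANTCA (7.71% of all) and the E box CACGTG (7.26%) were not in these 6 windows. No 2 of these motifs overlapped in the 6 windows.

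Per kilobase of merged exon, the level that can be compared between genes, MYC stood highest, at a mean of 27.7 CPM per kb over the 66 libraries. It was followed by ETV4 (25.4), EGR1 (15.1), PHLDA1 (11.8), JUNB (8.94), SPRY4 (6.64), FOSL1 (5.53), FOS (4.30) and DUSP6 (3.56 CPM per kb). ETV5 was lowest at 2.698 CPM per kb. Several of the genes share exonic bases with a neighbour, and the counting options listed for the study name no strand. On GRCh38 MYC lies on chromosome 8 from 127735434 to 127742951, where 3.2% of its exonic bases also belong to the antisense RNA CASC11. DUSP6 lies on chromosome 12 from 89347235 to 89352501, and 28.6% of its exonic bases are shared with the antisense RNA ENSG00000274021. JUNB shares 14.2% with HOOK2 and PHLDA1 9.4% with PHLDA1-AS1, and reads from such stretches cannot be assigned to 1 of the partners.

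L. casei MVs at 48 h gave the clearest pattern: all 10 genes were higher than with PBS. MYC was higher than with PBS by 1.74 on the log2 scale, FOSL1 by 2.81, DUSP6 by 2.75 and EGR1 by 2.28, and the smallest difference was that of SPRY4, the gene of a Sprouty inhibitor of RAS signalling, at 0.77. PBS at 48 h held the lowest group mean of MYC, FOSL1 and DUSP6, though not of EGR1. With MVs the means at 24 and 48 h were 233 and 212 CPM for MYC and 7.33 and 7.81 CPM for FOSL1. For DUSP6 they were 15.7 and 39.4 CPM, and for EGR1 66.1 and 148.7 CPM. At an adjusted p under 0.05 the edgeR quasi-likelihood test called 10 of 10 higher, while 1.61% of all tested genes were called higher. The 10 genes were chosen with earlier results of these data known, so this count is no independent test of the set. The median log2 fold change of the 10 was 1.49, against 0.01 over all genes. The same genes did not pass against siRNA or L. casei RNA at the same time, and the next paragraphs give the libraries behind each call. Fewer cells with a transcript and less of it per cell cannot be told apart in such bulk RNA.

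MYC stood at 221 CPM in replicate 2 and 203 CPM in replicate 3 with L. casei MVs, against 56.3 CPM in replicate 2 and 45.7 CPM in replicate 5 with PBS. Every MV library lay above both PBS libraries, and the fitted log2 fold change was 1.74 ± 0.24 (SE, edgeR adjusted p = 4.69e-05). With L. casei RNA the same gene was at 71.3 and 187 CPM in replicates 2 and 3, and with siRNA at 77.9 and 174 CPM. MYC was thus near the PBS level in replicate 2 of both transfected groups and near the MV level in replicate 3.

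FOSL1, the FRA-1 subunit of AP-1, had 9.95 and 5.68 CPM with MVs (replicates 2 and 3) and 1.24 and 1.06 CPM with PBS (replicates 2 and 5). Both PBS values rest on 6 reads each, so that the log2 fold change of 2.81 ± 0.58 (edgeR adjusted p = 0.00557) has a wide error. The transfected cells had 2.79 and 6.32 CPM with RNA and 1.26 and 6.31 CPM with siRNA, again low in replicate 2 and high in replicate 3.

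FOS, the partner of JUN proteins in AP-1, was at 55.1 and 27.1 CPM with MVs and at 13.6 and 12.01 CPM with PBS (1.68 ± 0.43, edgeR adjusted p = 0.0241). JUNB, a JUN family subunit, was at 24.9 and 24.1 CPM with MVs and 5.98 and 10.8 CPM with PBS (1.29 ± 0.27, edgeR adjusted p = 0.00379). EGR1 was at 250.2 and 47.1 CPM with MVs and at 28.5 and 42.9 CPM with PBS (2.28 ± 0.44, edgeR adjusted p = 0.00263). The EGR1 mean with MVs was carried by replicate 2, while replicate 3 lay just above the higher PBS library.

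DUSP6, the phosphatase that removes the activating phosphates of ERK, was at 49.1 and 29.8 CPM with MVs and at 5.78 and 5.48 CPM with PBS (28 and 31 reads). Its log2 fold change was 2.75 ± 0.51 (edgeR adjusted p = 0.00215). ETV4 and ETV5 encode ETS factors whose transcripts follow ERK activity. ETV4 was at 103.7 and 118 CPM with MVs and 48.1 and 38.7 CPM with PBS (1.22 ± 0.30, edgeR adjusted p = 0.0196). ETV5 was at 18.5 and 20.6 CPM with MVs and 8.05 and 11.0 CPM with PBS (1.07 ± 0.21, edgeR adjusted p = 0.000968). For these 3 genes no library of the MV group overlapped the PBS group, and the 2 MV libraries of each ETS gene lay close together.

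SPRY4 was at 61.6 and 62.9 CPM with MVs and at 34.7 and 32.9 CPM with PBS (0.77 ± 0.20, edgeR adjusted p = 0.0313). PHLDA1, a pleckstrin-homology-like gene induced by growth factors, was at 29.5 and 62.4 CPM with MVs and at 9.08 and 20.0 CPM with PBS (1.15 ± 0.28, edgeR adjusted p = 0.0187). All 10 genes thus had both MV libraries above both PBS libraries, which held for 23.7% of all tested genes.

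**Figure D1:**
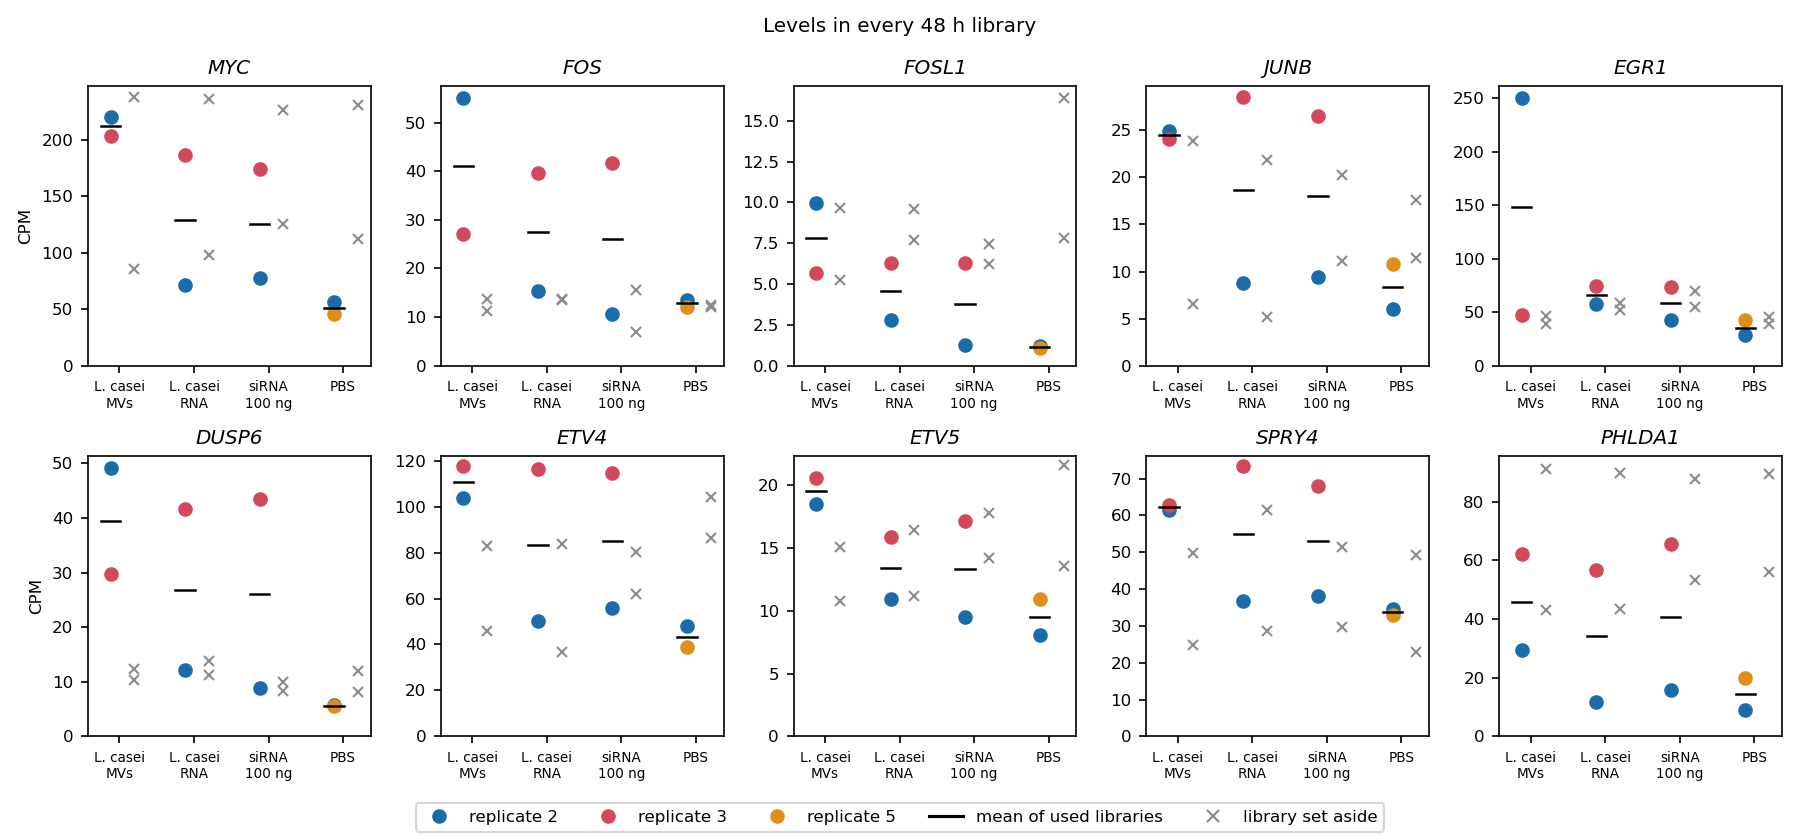
Level in CPM (vertical axes, from 0) of each of the 10 genes in every 48 h library of the L. casei MV, L. casei RNA, siRNA and PBS groups, with replicate numbers as colours, means of the used libraries as bars and libraries set aside as grey crosses. Replicate 2 is higher with MVs than in the other 3 groups for each gene, replicate 3 with MVs lies near replicate 3 of the transfected groups for most, and PBS has replicates 2 and 5 only.

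MVs differed most from the transfected groups in replicate 2. There MVs exceeded PBS by 1.78 to 8.79 times over the 10 genes (median 3.98), siRNA by 1.62 to 7.87 times (median 2.73) and L. casei RNA by 1.68 to 4.36 times (median 2.96). A ratio over 1.5 between MVs and siRNA was found in 6.84% of the 17909 genes with a mean of at least 1 CPM in this replicate. In replicate 3 the ratio of MVs to siRNA ran from 0.641 to 1.2 with 3 of the 10 genes above 1, and that of MVs to L. casei RNA from 0.629 to 1.3 with 4 of 10 above 1, where 45.2% and 48.4% of the 17909 genes were above 1.

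Within the transfected groups the 10 genes were higher in replicate 3 than in replicate 2, with median ratios of 2.51 for siRNA and 2.46 for L. casei RNA, whereas with MVs 4 of the 10 were higher in replicate 3. Over the 17909 genes the median ratio was 1.01, 0.997 and 0.987 for siRNA, RNA and MVs. Of those genes, 51%, 49.8% and 48% were higher in replicate 3, so that the 4 of 10 with MVs was near the share of all genes. PBS at 48 h had no used library of replicate 3, so the level of the 10 genes in replicate 3 with PBS was not measured in the used libraries. The lanes moved with the replicates: replicate 2 of the MV, RNA and siRNA groups was in lane 2 of flow cell 2 and replicate 3 in lane 4, while PBS replicate 2 was in lane 1 of flow cell 1 and PBS replicate 5 in lane 4 of flow cell 2. The labels do not say whether replicates are separate cultures, and a p-value here reflects only scatter between libraries. That scatter was estimated in 1 fit over the 66 libraries of all groups, not from the 48 h libraries alone. The part of the lanes in the difference was not tested beyond a fit with flow cell and lane as a term, in which DUSP6, EGR1, ETV5 and MYC passed (4 of 10).

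The calls at 48 h depended on single libraries. Without MV replicate 2, ETV5 and MYC passed (2 of 10), and without PBS replicate 2, MYC alone passed (1 of 10). Without PBS replicate 5, DUSP6, EGR1, ETV5, JUNB, MYC and PHLDA1 passed (6 of 10), and without MV replicate 3, 7 passed. Without the term for the replicate number 7 of 10 passed, and with that term fitted within each time 6 of 10. MYC was called in each of these. Of all tested genes, in either direction, 1.2% were called without MV replicate 2, 0.762% without PBS replicate 2, 1.07% without PBS replicate 5, 0.724% without MV replicate 3, 0.33% without the replicate term, 1.73% with it within each time and 1.04% with the lane term. The 48 h libraries set aside did not show the pattern: MYC stood at 86.0 and 238 CPM with MVs and 231 and 113 CPM with PBS, and DUSP6 at 10.2 and 12.3 CPM with MVs and 11.95 and 8.18 CPM with PBS.

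Against siRNA at 48 h, 0 of the 10 genes passed, and 0.0107% of all tested genes were called higher. All 10 log2 fold changes lay above 0, with a median of 0.66. An unadjusted p under 0.05 was found for 6 of 10, beside 6.31% of all genes in either direction. MYC was the first of them, at 0.87 ± 0.21 (edgeR adjusted p = 0.29). Without siRNA replicate 3 the same comparison called 6 of 10 and 0.357% of all genes in either direction, and without MV replicate 3 it called EGR1 and MYC and 0.032% of all genes. DESeq2 called 0 of 10. Against L. casei RNA 0 of 10 passed as well, at the same background of 0.0107% called higher and a median of 0.49, and EGR1 and MYC passed without MV replicate 3, with 0.0426% of all genes in either direction. MYC and ETV5 were the 2 genes with both MV libraries above both libraries of each transfected group, beside 10.8% of all genes for siRNA and 10.3% for RNA. The siRNA group itself had all 10 log2 fold changes above 0 against PBS at 48 h (median 0.87). Of the 10, 0 were called, while 0.25% of all genes were called higher. An unadjusted p under 0.05 was found for 9, beside 11% of all genes in either direction. L. casei RNA against PBS likewise had 10 above 0 (median 0.92) and 0 called, at a background of 0.186% called higher. All 10 had an unadjusted p under 0.05, beside 11.3% of all genes in either direction. The comparisons of MVs, siRNA and L. casei RNA with PBS share the PBS libraries. Without replicate 2 of the transfected group, 8 of 10 passed for siRNA and 8 of 10 for L. casei RNA, beside 4.05% and 2.85% of all genes in either direction. DESeq2 called 2 and 3 of 10, beside 1.89% and 0.817% of the genes to which it gave an adjusted p.

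Other genes of the pathway were described from lists drawn up with the results known. Of all tested genes, 1.61% were called higher with MVs than with PBS at 48 h. Of 20 tested immediate early genes besides the 10, 4 were higher in that comparison and 0 lower. They included the anti-apoptotic IER3 (log2 2.03 ± 0.45, 26.6 against 6.55 CPM), the orphan nuclear receptor NR4A1 (0.98 ± 0.27) and IER2 (0.61 ± 0.13). Of 12 other ERK feedback genes 2 were higher, both inhibitors of RAS and RAF signalling: SPRED1 (1.22 ± 0.24) and SPRY2 (0.62 ± 0.18). The transcripts of the cascade itself, 20 receptors, adaptors and kinases from EGFR to MAPK3, gave 0 calls in either direction, with a median log2 fold change of -0.05.

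Beside 1.61% of all genes called higher, 8 of 20 MYC target genes were higher and 0 lower, with a median of 0.38. Among them were DKC1, which modifies ribosomal RNA (0.74 ± 0.13, 60.3 against 37.2 CPM), the ribosome assembly gene RRP12 (0.72 ± 0.19) and ODC1, the first enzyme of polyamine synthesis (0.56 ± 0.16). The 10 partners and rivals of MYC in its dimer network, MAX among them, gave 0 calls, as did 10 WNT target genes and 10 proliferation genes. Of 11 enterocyte genes 2 were lower, the disaccharidase SI (-1.13 ± 0.29) and the lipoprotein gene APOB (-0.70 ± 0.16), beside 1.15% of all genes called lower. The 6 epithelial markers and the 7 tested markers of other cell types gave 0 calls.

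**Figure D2:**
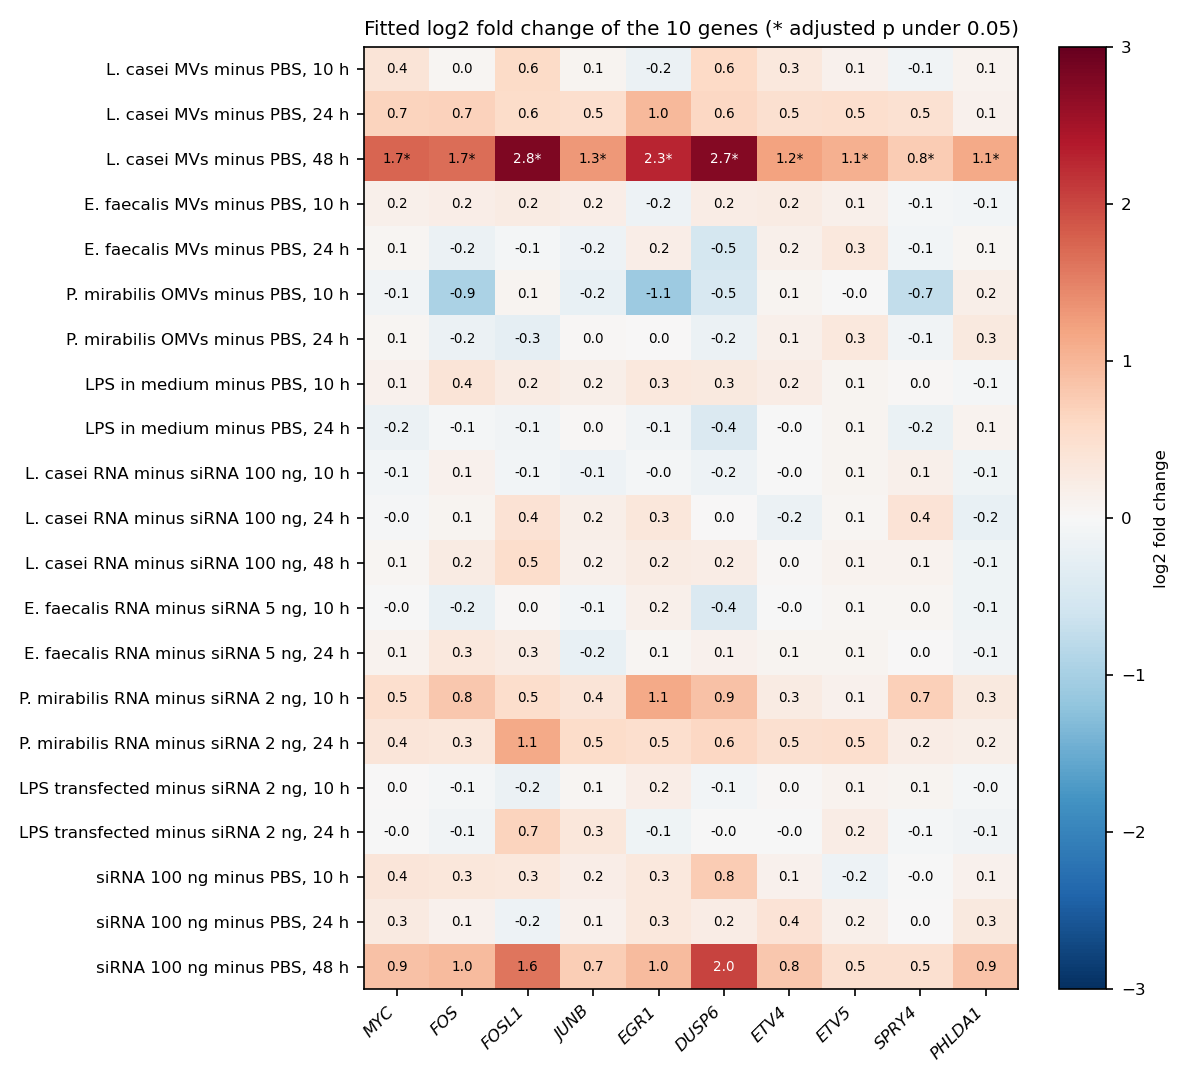
Fitted log2 fold change (colour and number) of the 10 genes (columns) in 21 comparisons of a treatment with its control (rows), with an asterisk at an adjusted p under 0.05. The asterisks stand in the row of L. casei MVs against PBS at 48 h, and the row of siRNA against PBS at 48 h is raised without them.

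At 10 and 24 h L. casei MVs gave 0 calls among the 10 genes, at backgrounds of 0.016% and 0.00533% called higher. At 24 h all 10 log2 fold changes against PBS were above 0, with a median of 0.53. Of the 10, 5 had an unadjusted p under 0.05, beside 3.95% of all genes in either direction. MYC was at 188 and 277 CPM with MVs and 108 and 192 CPM with PBS in replicates 2 and 3 (0.66 ± 0.21, edgeR adjusted p = 1). EGR1 was at 68.6 and 63.6 CPM with MVs and at 34.0 and 34.2 CPM with PBS. SPRY4 was at 51.2 and 57.8 CPM with MVs and 34.8 and 44.3 CPM with PBS. The groups of EGR1 and SPRY4 did not overlap, as was so for 6 of the 10 genes and 10.6% of all genes, and neither passed the test. At 10 h the median was 0.12 with 8 of 10 above 0. The change of the MV effect between 24 and 48 h was above 0 for 10 of 10 genes (median 1.00). Of them 0 passed the test of that difference, beside 0.016% of all genes called higher. An unadjusted p under 0.05 was found for 7 of 10, beside 7.37% of all genes in either direction.

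Several of the genes were lower at the later time in cells given PBS. Between 24 and 48 h MYC fell to 56.3 and 45.7 CPM at 48 h (replicates 2 and 5), against 108 and 192 CPM at 24 h (replicates 2 and 3). The log2 fold change was -1.16 ± 0.25 (edgeR adjusted p = 0.000814). PHLDA1 was at 9.08 and 20.0 CPM at 48 h and at 28.4 and 86.8 CPM at 24 h (-1.41 ± 0.28, edgeR adjusted p = 0.000268). FOSL1 was at 1.24 and 1.06 CPM at 48 h and at 4.73 and 5.24 CPM at 24 h (-2.15 ± 0.65, edgeR adjusted p = 0.0169). These 3 of the 10 genes passed as lower, beside 10.7% of all genes, and FOS, at 13.6 and 12.01 CPM at 48 h and 10.6 and 12.3 CPM at 24 h, was 1 of the 7 that did not pass. Without any 1 of the 4 libraries MYC and PHLDA1 still passed and FOSL1 did not. Replicate number and time are mixed here, since the 48 h group has replicate 5 and no replicate 3.

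Over the same interval with PBS, 17 of 20 MYC target genes were lower, led by ODC1 (-1.17 ± 0.16), RRP12 (-0.96 ± 0.19) and RRP9 (-0.94 ± 0.17). Of all tested genes, 10.7% were called lower. WNT target genes were lower in 9 of 10, with AXIN2 at -1.43 ± 0.20, and proliferation genes in 7 of 10, with the cyclin gene CCNB1 at -0.64 ± 0.09. Of 11 enterocyte genes 6 were higher, among them the peptidase ANPEP (1.55 ± 0.22) and SI (1.24 ± 0.29), and 1 was lower, beside 7.05% of all genes called higher. Of the other immediate early genes, 3 of 20 were lower, including JUN (-1.90 ± 0.65), and 1 was higher. Both counts were near the shares over all genes. The epithelial markers moved too, 4 of 6 lower and 1 higher, with the keratin gene KRT8 at -1.34 ± 0.19, and of the markers of other cell types LYZ was lower (-1.02 ± 0.26). Their part in the change of the 10 genes was not tested.

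FOSL1 was lower at 24 h than at 10 h in all 4 treatments followed to 48 h, and the call was made in 3 of the 4. With L. casei MVs it was at 6.73 and 7.93 CPM at 24 h and 16.9, 15.2 and 19.0 CPM at 10 h (-1.17 ± 0.31, edgeR adjusted p = 0.00694, 9.09% of all genes lower). With siRNA it was at 4.54 and 4.36 CPM at 24 h and at 15.6, 14.3, 11.8 and 16.3 CPM at 10 h (-1.62 ± 0.34, edgeR adjusted p = 0.000899, 7.51% of all genes lower). With L. casei RNA the change was -1.12 ± 0.33 (edgeR adjusted p = 0.0191, 7.25% lower), lost without replicate 2 or 5 at 24 h or replicate 5 at 10 h. That call was also lost with the replicate term fitted within each time, where ETV4 and PHLDA1 passed instead. With PBS FOSL1 was at 4.72 and 5.24 CPM at 24 h and 12.7 and 10.4 CPM at 10 h, and the change of -1.15 ± 0.40 did not pass (edgeR adjusted p = 0.0751, 4.23% of all genes lower), although DESeq2 called it. The 2 times did not overlap for FOSL1 in any of the 4 treatments. Of all genes, 17.4% lay wholly lower at 24 h with MVs, 13.5% with siRNA, 9.74% with L. casei RNA and 18.9% with PBS.

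EGR1 and SPRY4 were the genes that increased between 10 and 24 h with L. casei MVs, a call made for 2 of the 10 and 7.77% of all genes. EGR1 was at 68.6 and 63.6 CPM at 24 h and at 31.8, 18.2 and 35.1 CPM at 10 h (1.27 ± 0.42, edgeR adjusted p = 0.0329). SPRY4 was at 51.2 and 57.8 CPM at 24 h and 35.3, 36.6 and 44.6 CPM at 10 h (0.60 ± 0.18, edgeR adjusted p = 0.0173). Neither gene's groups overlapped between the 2 times, as for 15.8% of all genes. FOSL1 alone passed without the replicate term, without replicate 3 at 10 h and without replicate 3 at 24 h, and 0 of 10 passed without replicate 2 at 24 h.

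Between 24 and 48 h with MVs, DUSP6 (1.35 ± 0.39, edgeR adjusted p = 0.0139), FOS (1.17 ± 0.37, edgeR adjusted p = 0.0246) and EGR1 (1.12 ± 0.38, edgeR adjusted p = 0.0349) rose, as did 7.18% of all genes. DUSP6 was at 49.1 and 29.8 CPM at 48 h and 12.8 and 18.6 CPM at 24 h. EGR1 overlapped between the times, at 250.2 and 47.1 CPM at 48 h and 68.6 and 63.6 CPM at 24 h, and without replicate 2 at 48 h its value turned to -0.42. The count was 0 of 10 without that library and without either 24 h library, and 1 of 10 (DUSP6) without the replicate term. PHLDA1 was lower at 48 h than at 24 h with siRNA (-0.85 ± 0.21, edgeR adjusted p = 0.00404, 8.34% of all genes lower) and with L. casei RNA (-0.76 ± 0.23, edgeR adjusted p = 0.0208, 9.42% lower). The siRNA call was lost without replicate 3 at 24 h or replicate 2 at 48 h, and the RNA call without replicate 2 or 3 at 24 h or replicate 2 at 48 h. The test of whether the change from 24 to 48 h differed between MVs and siRNA called 0 of 10 and 0% of all genes, with 0 of 10 at an unadjusted p under 0.05.

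**Figure D3:**
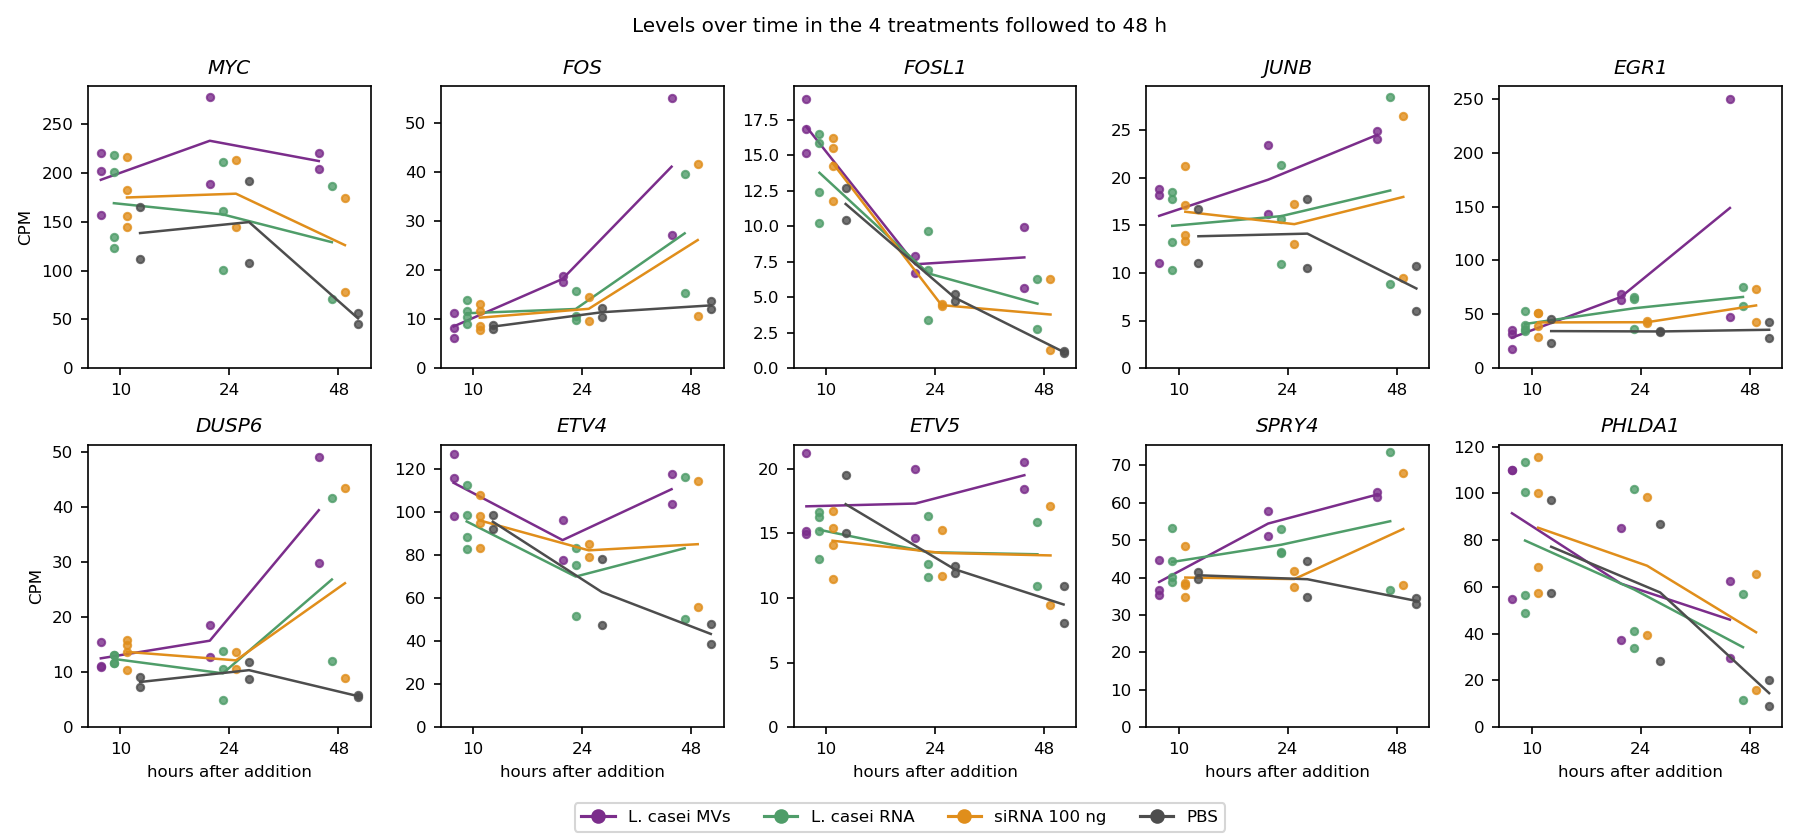
Level in CPM (vertical axes, from 0) of each of the 10 genes at 10, 24 and 48 h with L. casei MVs, L. casei RNA, 100 ng siRNA and PBS, with the times spaced evenly, points for libraries and lines through the group means. The means of FOSL1 and PHLDA1 are lower at 48 h than at 10 h in all 4 treatments, and MYC with PBS ends at 56.3 and 45.7 CPM.

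P. mirabilis OMVs at 10 h held the lowest group means of FOS, EGR1 and SPRY4 among the 28 groups. SPRY4 was at 15.1, 27.6 and 32.8 CPM with OMVs, against 36.9 and 42.3 CPM with LPS in the medium and 41.6 and 39.6 CPM with PBS. Every OMV library lay below every library of both controls. Against LPS the log2 fold change was -0.77 ± 0.19 (edgeR adjusted p = 0.0157), the 1 call among the 10 genes, where 1.88% of all genes were called lower. Against PBS it was -0.75 ± 0.20 (edgeR adjusted p = 0.06), with 0.639% of all genes called lower. The call against LPS was lost without OMV replicate 2, without either LPS library and without the replicate term.

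EGR1 was at 12.9, 14.0 and 18.0 CPM with OMVs, against 44.7 and 32.7 CPM with LPS and 45.4 and 23.5 CPM with PBS. Its log2 fold change was -1.40 ± 0.48 against LPS (edgeR adjusted p = 0.107) and -1.08 ± 0.54 against PBS (edgeR adjusted p = 0.441). FOS was at 4.09, 2.89 and 6.31 CPM with OMVs (24 to 35 reads), against 12.9 and 9.03 CPM with LPS and 8.91 and 8.07 CPM with PBS. DUSP6 was at 4.09, 6.502 and 7.21 CPM with OMVs, against 11.0 and 9.55 CPM with LPS and 7.22 and 9.18 CPM with PBS. For these 3 genes and SPRY4 the OMV group lay wholly below each control, for DUSP6 by a narrow margin against PBS, which held for 4 of the 10 genes and 11.8% of all genes against LPS and 10.6% against PBS. The OMV library set aside, replicate 5, stood at 78.5 CPM for EGR1 and 22.3 CPM for FOS.

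For MYC the OMV group overlapped both controls, at 92.9, 162 and 163 CPM with OMVs, 122.8 and 179.5 CPM with LPS and 112 and 165 CPM with PBS. In replicates 2 and 3 it was lower with OMVs than with either control. Over the 10 genes, 1 log2 fold change lay above 0 against LPS (median -0.32) and 3 against PBS (median -0.17). Of all genes, 50.8% and 49.6% lay above 0. PHLDA1 was at 64.8, 106 and 114 CPM with OMVs and 57.3 and 96.95 CPM with PBS. DESeq2 called EGR1, FOS and SPRY4 lower against LPS (3 of 10) and SPRY4 against PBS (1 of 10), beside 5.38% and 2.41% of the genes to which it gave an adjusted p, in either direction. In the list of other ERK feedback genes SPRED2 was lower against LPS (-0.29 ± 0.09), and the immediate early gene KLF6 was lower too (-0.50 ± 0.13). Of the cascade genes ERBB2 (-0.38 ± 0.10) and MAPK3, which encodes ERK1 (-0.35 ± 0.08), were lower, 2 of 20. WNT targets were higher in 3 of 10, with AXIN2 at 0.88 ± 0.13, and MYC targets in 3 of 20, with RRP9 at 0.42 ± 0.10. Enterocyte genes were lower in 4 of 11 and proliferation genes higher in 3 of 10, beside 1.3% of all genes called higher against LPS. The collagen gene COL1A1, a marker of other cell types, was lower (-0.67 ± 0.13), and its part was not tested. At 24 h 0 of the 10 genes passed after OMVs against LPS or PBS, beside 0.00533% and 0.016% of all genes called lower. EGR1 then stood at 30.2 and 36.9 CPM with OMVs, against 25.6 and 40.5 CPM with LPS and 34.0 and 34.2 CPM with PBS. The change of the OMV effect between 10 and 24 h passed for 0 of 10 genes and 0.0213% of all genes as higher. An unadjusted p under 0.05 was found for 1 of 10, beside 6.25% of all genes in either direction.

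P. mirabilis RNA at 10 h held the highest group means of MYC, FOSL1, JUNB, ETV4, SPRY4 and PHLDA1 among the 28 groups. All 10 log2 fold changes were above 0 against 2 ng of siRNA (median 0.53) and against transfected LPS (median 0.57), and 0 passed in edgeR or DESeq2, as did 0 of all 18775 genes in edgeR. Of the 10, 3 had an unadjusted p under 0.05 against siRNA and 5 against LPS, beside 4.77% and 4.71% of all genes. SPRY4 was at 60.2 and 100.3 CPM with RNA, against 41.9 and 45.97 CPM with siRNA in replicates 2 and 3 (0.71 ± 0.21, edgeR adjusted p = 1). EGR1 was at 86.6 and 113 CPM with RNA and 46.4 and 34.4 CPM with siRNA (1.13 ± 0.48, edgeR adjusted p = 1). MYC was at 216 and 312 CPM with RNA and 168 and 199 CPM with siRNA (0.51 ± 0.22, edgeR adjusted p = 1). The RNA group lay wholly above siRNA in 7 of the 10 genes and 10.9% of all genes. Replicate 3 with RNA was the shallowest of the used libraries, at 632659 counts, which limits these values. The set-aside libraries of the RNA group gave EGR1 at 104.8 and 106 CPM, and that of 2 ng siRNA gave 59.5 CPM. PHLDA1 ran the other way, at 78.1 and 78.7 CPM in the set-aside RNA libraries and 92.9 CPM in that of siRNA. MYC, at 194 and 269.8 CPM with RNA and 248 CPM with siRNA, overlapped there, as did JUNB and SPRY4.

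At 24 h all 10 genes again lay above 0 with P. mirabilis RNA, with a median of 0.48 against siRNA and 0.42 against LPS, and 0 passed, as did 0 of all 18775 genes in each comparison. FOSL1 was highest in this comparison, at 11.1, 9.52 and 15.8 CPM with RNA and 5.82 and 4.88 CPM with siRNA (1.13 ± 0.35, edgeR adjusted p = 0.512). MYC stood at 162, 262 and 298 CPM with RNA and 120 and 227 CPM with siRNA, so that its groups overlapped.

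**Figure D4:**
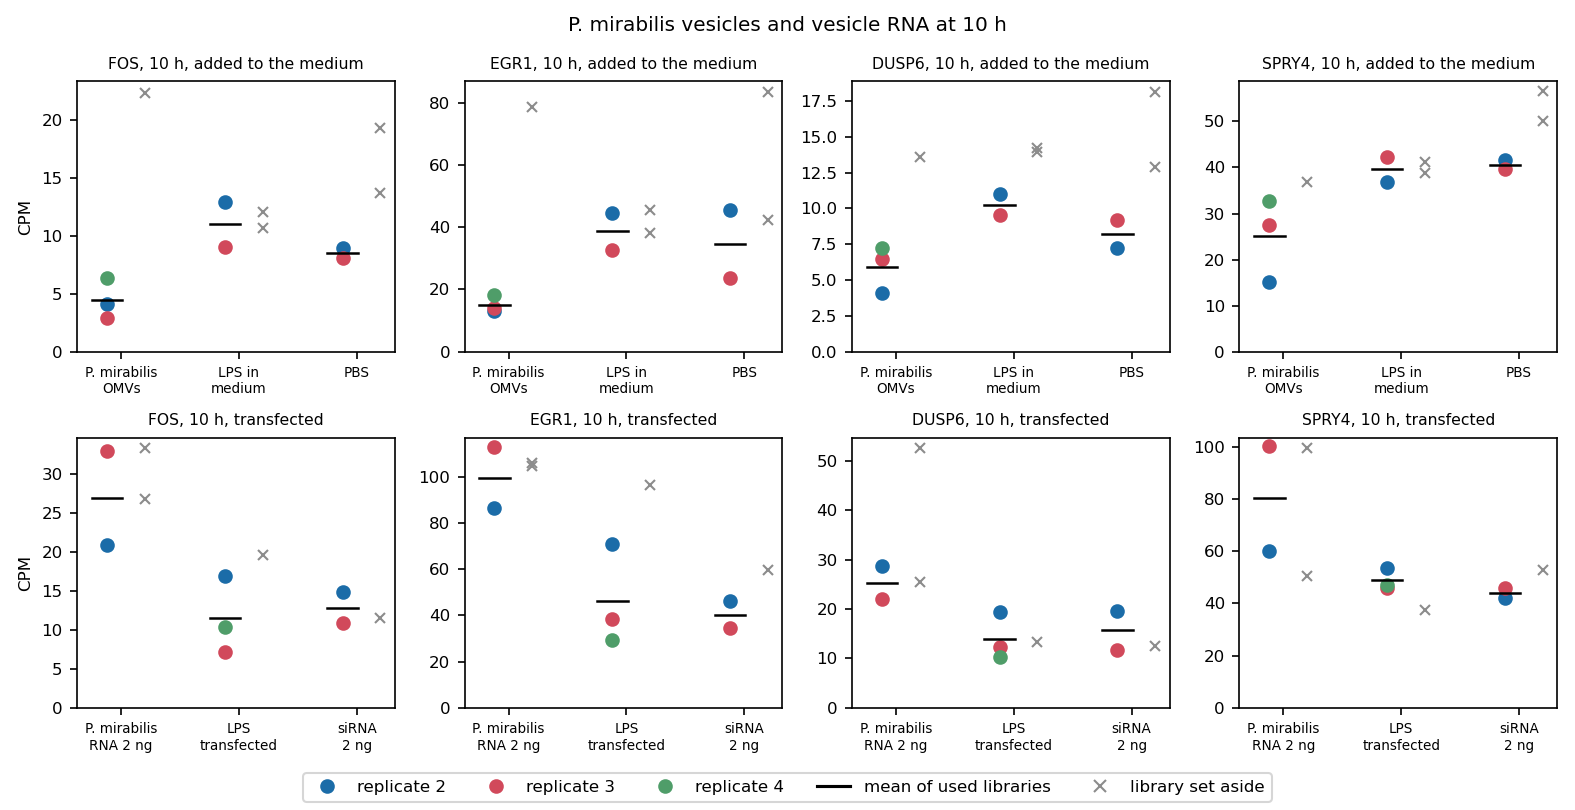
Level in CPM (vertical axes, from 0) of FOS, EGR1, DUSP6 and SPRY4 at 10 h, above for P. mirabilis OMVs, LPS in the medium and PBS and below for P. mirabilis RNA, transfected LPS and 2 ng siRNA, with replicate numbers as colours, means as bars and libraries set aside as grey crosses. The 3 OMV libraries lie below the used libraries of LPS and PBS in each of the 4 panels, and the RNA libraries lie above those of siRNA.

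The other treatments gave 0 calls among the 10 genes in edgeR: E. faecalis MVs against PBS and E. faecalis RNA against 5 ng of siRNA at 10 and 24 h, L. casei RNA against siRNA at each time, LPS by either route, and siRNA against PBS at 10 and 24 h. None of all 18775 genes passed in these comparisons. The medians over the 10 genes ran from -0.08 for LPS in the medium at 24 h to 0.26 for siRNA against PBS at 10 h. With E. faecalis MVs at 24 h DUSP6 was at 3.58 and 8.41 CPM, against 8.82 and 11.9 CPM with PBS, the lowest of them resting on 5 reads. These groups did not overlap, so that 1 of the 10 genes lay wholly lower, beside 11.9% of all genes. ETV5, at 15.04 and 15.3 CPM with those MVs and 11.97 and 12.5 CPM with PBS, was the 1 wholly higher, beside 10.3% of all genes, and both shares are near the background. MYC was at 107 and 195 CPM with those MVs and 108 and 192 CPM with PBS. An unadjusted p under 0.05 was found for 1 of the 10 genes in L. casei RNA at 24 h, beside 2.83% of all genes. In the others it was found for 0 of the 10, and DESeq2 called 0 of 10 in each.

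The level of some of the genes moved with the replicate number. Replicate 3 minus replicate 2, across all groups, was 1.15 ± 0.06 for PHLDA1 (edgeR adjusted p = 1.87e-19), 0.69 ± 0.07 for JUNB (edgeR adjusted p = 2.85e-12), 0.60 ± 0.06 for MYC (edgeR adjusted p = 2.95e-11) and 0.28 ± 0.06 for SPRY4 (edgeR adjusted p = 3.73e-05). These were 4 of the 10, all higher in replicate 3, where 31.1% of all genes were higher and 31.1% lower. FOS (-0.08 ± 0.14), EGR1 (-0.22 ± 0.13) and the remaining 4 did not pass. MYC at 10 h with siRNA, for example, was at 156 CPM in replicate 2, 182 in replicate 3, 217 in replicate 4 and 145 in replicate 5.

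Ordered by group mean, MYC was highest at 264 ± 68.2 CPM with P. mirabilis RNA at 10 h and lowest at 51.0 ± 7.49 CPM with PBS at 48 h (SD, n = 2 each), a ratio of 5.17. Below the top stood P. mirabilis RNA at 24 h (241 ± 70.4 CPM, n = 3), L. casei MVs at 24 h (233 ± 62.9 CPM, n = 2) and L. casei MVs at 48 h (212 ± 12.2 CPM, n = 2), and these 4 did not differ beyond their spread. The next group above PBS at 48 h, siRNA at 48 h (126 ± 68.0 CPM, n = 2), was set apart from it by about its own spread. FOSL1 had the widest range of the 10, 29.9 ± 11.0 CPM with P. mirabilis RNA at 10 h against 1.15 ± 0.13 CPM with PBS at 48 h, and ETV5 the narrowest, 19.5 ± 1.48 CPM with L. casei MVs at 48 h against 9.50 ± 2.05 CPM with PBS at 48 h. FOS, EGR1, DUSP6 and ETV5 were highest with L. casei MVs at 48 h, and PBS at 48 h was lowest for 7 of the 10.

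Over the 28 fitted group levels, which share libraries' depth and culture times, 40 of the 45 pairs of genes correlated above 0, at a median Pearson r of 0.553. EGR1 moved most closely with FOS (r = 0.93) and SPRY4 (0.926), and FOSL1 with ETV4 (0.897), ETV5 (0.867) and PHLDA1 (0.852). FOS and PHLDA1 ran against each other (r = -0.444), the lowest of the 45 values, and MYC lay nearest to ETV5 (0.755) and JUNB (0.714).

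By the same measure over 17909 genes, those most like MYC were CASC11 (r = 0.979), SINHCAF and ID1 (0.872 each), HNRNPF (0.851) and MIR17HG (0.832). Of these, CASC11 and ID1 were also among the first 5 when the 66 libraries were correlated instead. CASC11 overlaps MYC in antisense, and its reads could in part belong to MYC. Most like DUSP6 were ENSG00000274021 (r = 0.979), JUNB (0.884), PPP1R15A (0.865), FOS (0.861) and the cyclin gene CCND1 (0.857). ENSG00000274021 shares 49% of its own exonic bases with DUSP6 on the opposite strand. The 2 counts may not be separate measures, which was not tested.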

How the data were processed

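The authors aligned reads of Caco-2 RNA to GRCh38 with STAR, handled duplicates with sambamba and deposited featureCounts counts of primary alignments per gene, unnormalized. Versions stand in the study's methods, whose counting options name no strand. In all 66 libraries entered the fit (632659 to 8558755 counts), and 39 from lanes 2 to 4 of 1 flow cell were set aside. Counts were tested with edgeR 4.0.16 in R 4.3.3 (filterByExpr, TMM, trended dispersion, robust quasi-likelihood test) with group and replicate number as terms and Benjamini-Hochberg adjustment over 18775 genes per comparison. Standard errors were taken from the F statistic. Replicate numbers were taken as pairs because deviations correlated above 0.1 in every pair of 32 comparisons (lowest 0.197, median 0.469). This comes from the data, since the labels name no shared culture. Of the 32, 2 had 3 or more pairs, and where there were 2 pairs both give the same value by construction. Comparisons with PBS at 48 h shared 1 replicate number, so pairing could not be checked for them. DESeq2 1.42.0 and other settings were alternatives. Of 63241 IDs, 62030 matched gene names exactly. The genes, lists and naming rule (all 10 genes, and up to 3 called genes per list) were chosen with earlier results of these data known. Scripts were tested on simulated data.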

Additional observations from a re-analysis of the deposited data

How the results depend on the processing

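Counts are of the 10 genes past the edgeR test unless another tool is named. Percentages, where given, are of all genes tested in that setting, called in either direction. Without the replicate block (no pairing of replicate numbers) the count was 7 for L. casei MVs against PBS at 48 h, 1 for siRNA and 1 for L. casei RNA against PBS at 48 h (DUSP6 in both), 1 for MVs from 10 to 24 h, 1 for MVs from 24 to 48 h, 0 for siRNA from 24 to 48 h and 0 for P. mirabilis OMVs against LPS at 10 h. All-gene shares there were 0.33% for MVs, 0.0479% for siRNA and 0.0266% for RNA against PBS at 48 h, and 0.197% for OMVs against LPS. In the main fit they were 2.75%, 0.282%, 0.25% and 3.18%. With the block within each time it was 6 for MVs against PBS and 1 for MVs against siRNA at 48 h, 3 for siRNA, 3 for PBS and 2 for L. casei RNA from 10 to 24 h (ETV4 and PHLDA1, without FOSL1), and 1 for OMVs against PBS. That setting called 1.73% of all genes for MVs against PBS, 0.357% for MVs against siRNA and 3.63% for OMVs against PBS. The main fit had 2.75%, 0.0213% and 1.06%. Adding back the 39 libraries set aside gave 0 in every treatment or time comparison, with or without the block. The share of all genes was then 0% for MVs against PBS at 48 h. For OMVs against LPS it was 0.032% with the block and 0.0266% without. A lane term gave 4 for MVs against PBS and 1 for OMVs against PBS, beside 1.04% and 1.86% of all genes.

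DESeq2 gave 2 for siRNA and 3 for L. casei RNA against PBS at 48 h, 2 for siRNA and 3 for RNA from 24 to 48 h, 1 for PBS from 10 to 24 h, and 3 and 1 for OMVs against LPS and PBS. Of the genes given an adjusted p, it called 1.89% and 0.817% for siRNA and RNA against PBS. For OMVs against LPS and PBS it called 5.38% and 2.41%. Without the robust option the counts were 2 and 2 for siRNA and RNA against PBS at 48 h, 1 for MVs against siRNA, 4 and 3 for siRNA and RNA from 24 to 48 h, 1 for PBS from 10 to 24 h, and 2 and 1 for OMVs against LPS and PBS. The shares were then 0.373% and 0.314% for siRNA and RNA against PBS and 0.0213% for MVs against siRNA. For OMVs against LPS and PBS they were 3.23% and 1.08%. Without the low-count filter the counts were 1 for MVs from 24 to 48 h, 0 for RNA from 24 to 48 h, 2 for RNA against PBS (0.375% of all genes) and 1 for PBS from 10 to 24 h. The cause of these moves was not tested.

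Leaving out 1 library gave 1 to 7 for MVs against PBS at 48 h, 0 to 6 against siRNA, 0 to 2 against RNA, 0 to 8 for siRNA and for RNA against PBS, 0 to 3 for MVs from 10 to 24 h, 0 to 4 from 24 to 48 h, 2 for PBS from 24 to 48 h, 0 to 3 for siRNA and 0 to 2 for RNA from 24 to 48 h, and 0 to 1 for RNA from 10 to 24 h and for OMVs against LPS. The test for differences between effects and between replicates was not run with libraries left out.

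Signs turned with the 39 libraries added for FOSL1 with siRNA at 48 h (-0.322 without and -0.281 with the block) and MVs at 24 h (-0.857, -0.715), PHLDA1 with MVs at 24 h (-0.105, -0.025), ODC1 (-0.261, -0.257) and DKC1 (-0.01, without the block) with MVs at 48 h, DUSP6 with MVs from 24 to 48 h (-0.011, without) and PHLDA1 with P. mirabilis RNA at 10 h (-0.023, without).

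Leaving out 1 library turned 15 values, which then ranged as follows. Against siRNA at 48 h, MVs gave DUSP6 -0.114 to 2.144, EGR1 -0.215 to 2.09, ETV4 -0.004 to 0.95, FOS -0.133 to 2.036 and PHLDA1 -0.042 to 0.893. Against PBS, FOS with siRNA at 48 h gave -0.334 to 1.835, PHLDA1 with RNA at 48 h -0.165 to 1.225 and PHLDA1 with MVs at 24 h -0.052 to 0.436. EGR1 with MVs from 24 to 48 h gave -0.419 to 1.879 and ETV4 with P. mirabilis RNA at 10 h -0.24 to 0.53. OMVs against PBS at 10 h gave ETV4 -0.033 to 0.183, ETV5 -0.267 to 0.12, FOSL1 -0.152 to 0.2 and PHLDA1 -0.094 to 0.306. Of the values of named genes, 726 kept direction and side of the threshold under the other settings, 114 lost the call, 19 gained one and 11 turned. The shallowest library, 632659 counts, limits P. mirabilis RNA at 10 h.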
